A study of Mus musculus with 4 samples.

Results

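Amino acids are carried across the plasma membrane and the lysosomal membrane by proteins of the solute carrier (Slc) families. The genes described here were taken by symbol: Slc1a1 to Slc1a5, the Slc3, Slc7, Slc36, Slc38 and Slc43 genes, and the Slc6 genes Slc6a5, Slc6a7, Slc6a9, Slc6a14, Slc6a15, Slc6a17, Slc6a18 and Slc6a19. Other Slc1 and Slc6 genes are outside the rule, and its Slc6a20 matched no symbol, so family counts and medians refer to these genes alone. The rule uses no measured value, but it was written with earlier results of these data known. The rule gave 48 genes of the 55335 in the count table, in 7 families and 16 substrate groups. RNA-seq was performed on AB2.2, a mouse embryonic stem cell (ESC) line grown on mouse embryonic fibroblast feeders in medium with 15% serum, 1000 U/ml leukemia inhibitory factor, the GSK3 inhibitor CHIR99021 at 3 μM and the MEK inhibitor PD0325901 at 1 μM. The control group (2 libraries) had no added lactate and the lactate group (2 libraries) had 50 mM lactate for 24 h. All 4 libraries share the line, the feeders and both inhibitors. The salt form of the lactate is not stated, and no library controls for added osmolyte or acid. Reads assigned to genes numbered 18067562 and 19077885 in control and 18542554 and 18948861 in lactate libraries, so that 1 read was worth 0.0507 to 0.0578 CPM. Nothing in the labels says whether the 2 libraries of a group came from separate cultures, so the p-values measure the spread between these libraries, which may be technical.

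Amino acid carriers work as uniporters, as exchangers that trade one amino acid for another, or as cotransporters driven by sodium or protons. Slc3a2 (4F2hc, CD98) is not a carrier itself. It is a heavy chain that brings light chains of the Slc7 family to the cell surface, where the pair acts as an exchanger, and the Slc38 sodium-coupled carriers supply glutamine and small neutral amino acids that such exchangers can trade for leucine. Several of these genes are textbook targets of ATF4, the transcription factor translated when cells sense a shortage of amino acids or another stress on the ER or mitochondria.

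ESC markers were high in every library. The 8 markers Pou5f1, Nanog, Sox2, Klf4, Esrrb, Zfp42, Tfcp2l1 and Dppa5a summed to 5106 and 5561 CPM in the control libraries and to 5542 and 6333 CPM in the lactate libraries. Dppa5a alone was at 542 and 982 CPM in control and 564 and 1388 CPM in lactate libraries. Both edgeR and DESeq2 called 0 of the 8. At an unadjusted p under 0.05 in edgeR, 3 were higher (Sox2, Klf4 and Zfp42) and 0 lower, beside 11.7% and 11.4% of all genes. Feeder RNA was present too. The 10 fibroblast markers summed to 418.8 and 602.8 CPM in the control libraries and to 418.9 and 471.4 CPM in the lactate libraries, none was at 0, Col1a1 was the most abundant, and edgeR and DESeq2 called 0 of the 10, with 1 higher and 2 lower at an unadjusted p under 0.05 in edgeR. With no limit on the fold, 1 was lower at a DESeq2 adjusted p under 0.05 (Col3a1, 0.0396), beside 3.14% of all genes. The 2 groups overlapped in this sum. In bulk RNA, fewer cells of one type and less RNA per cell cannot be told apart.

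Lactate supplementation raised 9 of the 36 transporter genes with enough reads to be tested, and lowered none. The 9 were Slc7a11, Slc1a4, Slc6a9, Slc7a7, Slc6a7, Slc7a1, Slc1a1, Slc7a5 and Slc38a2, each up over 2-fold at a Benjamini-Hochberg adjusted p under 0.05 from edgeR (quasi-likelihood fit, adjusted over all 18661 genes tested). Among all genes tested, 0.552% were called higher and 0.348% lower by the same rule. At an unadjusted p under 0.05 in edgeR, 21 transporter genes were higher and 2 were lower, where 11.7% and 11.4% of all genes were. For 25 of the 36 genes the lactate pair of libraries exceeded the control pair without overlap, for 5 it lay below, and the groups overlapped for 6, beside 27.0% of all genes above and 25.9% below. The median log2 fold change of the 36 genes was 0.50, against 0.0101 for all genes tested. DESeq2 called the same 9 genes higher and 0 lower beyond 2-fold, where it called 1.12% of 16922 genes higher and 0.993% lower. With no limit on the fold, 13 members were higher and 1 was lower at a DESeq2 adjusted p under 0.05, beside 1.86% and 3.14% of all genes. Without control replicate 1, edgeR called 4 of the 9 (Slc7a11, Slc1a4, Slc6a9 and Slc7a7), and without lactate replicate 1 it called 8, losing Slc38a2. Among the 12 genes outside the test the highest count was 15 reads, and Slc6a18 and Slc7a12, a kidney carrier and a light chain, had 0 in all 4.

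**Figure D1:**
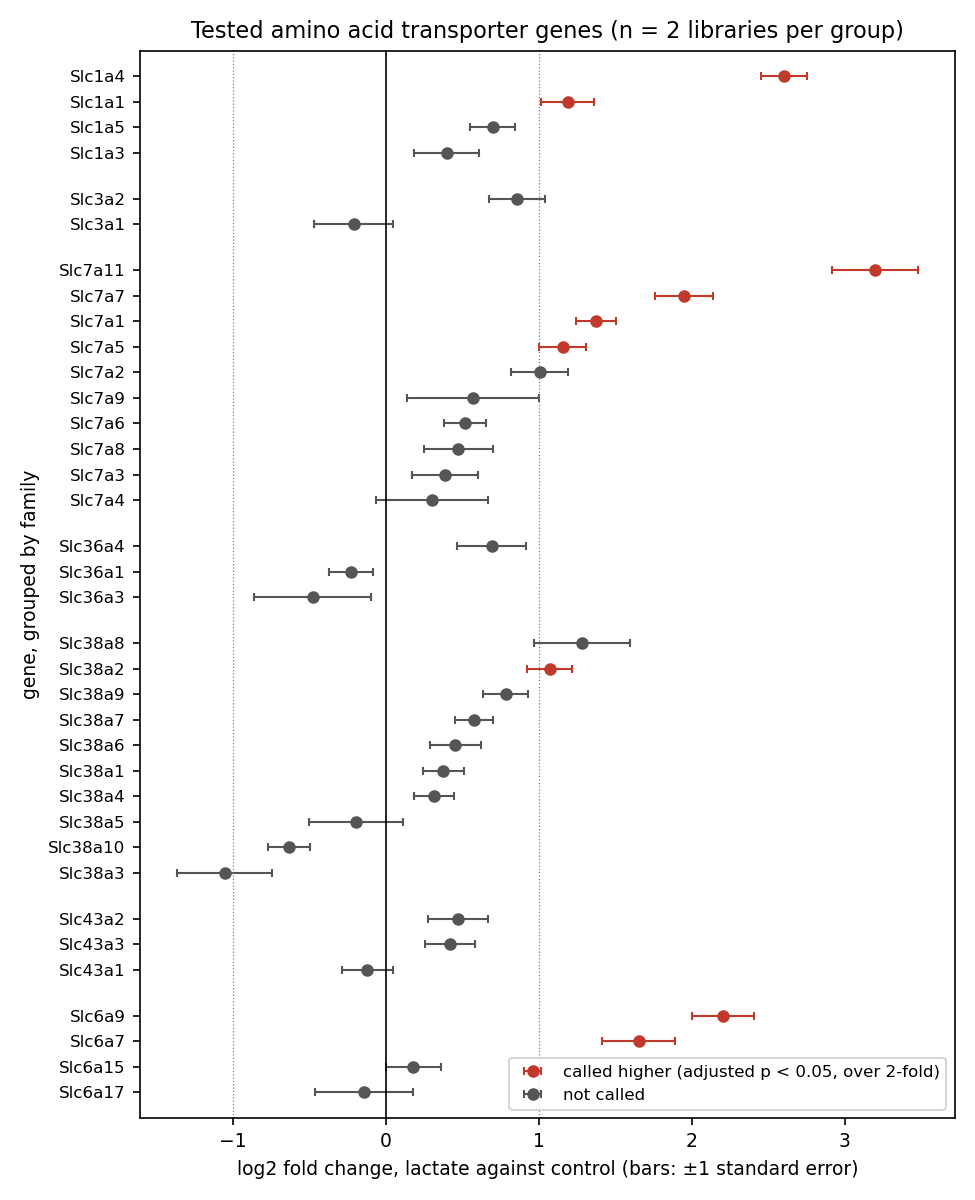
Log2 fold change (x axis) of the 36 tested transporter genes, lactate against control, grouped by family on the y axis, with bars of ±1 standard error from edgeR (n = 2 libraries per group). The 9 genes called higher are in red, with dotted lines at a 2-fold change, and all 10 tested Slc7 genes lie to the right of 0.

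The called genes came from 4 of the 7 families. In Slc1, 2 of 4 tested genes were called higher, in Slc7 4 of 10, in Slc6 2 of 4 and in Slc38 1 of 10. In Slc3 (2 tested), Slc36 (3 tested) and Slc43 (3 tested) edgeR and DESeq2 called 0, with 1 gene higher in each at an unadjusted p under 0.05 in edgeR. Median log2 fold changes were 0.94 for Slc1, 0.79 for Slc7, 0.92 for Slc6, 0.42 for Slc38, 0.42 for Slc43, 0.32 for Slc3 and −0.23 for Slc36. With so few genes in a family these medians are descriptions, and no difference between families was tested.

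Transporter mRNA was summed on the FPKM scale, which allows levels of different genes to be compared because it is per transcript length. The 48 genes summed to 540.3 and 620.4 FPKM in the control libraries and to 955 and 1106 FPKM in the lactate libraries. Both lactate libraries lay above both controls, and the ratio of the means, 1031 ± 107 to 580.4 ± 56.65 FPKM (SD, n = 2), was 1.78. An exact two-sided permutation test of 2 against 2 libraries cannot give a p below 0.333, so sums are given without a test. By family the ratio was 2.40 for Slc6, 2.38 for Slc1, 2.12 for Slc7, 1.96 for Slc3, 1.36 for Slc43, 1.30 for Slc38 and 1.01 for Slc36. The sodium-coupled Slc38 family held the largest family share in the control libraries, 38.2% and 35.9% of the summed FPKM, and 28.7% and 25.8% in the lactate libraries. The Slc7 share was 24.3% and 24.4% in control and 28.2% and 29.8% in lactate libraries. The 9 called genes together made up 22.6% and 21.3% of transporter FPKM in control and 33.5% and 33.0% in lactate libraries.

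**Figure D2:**
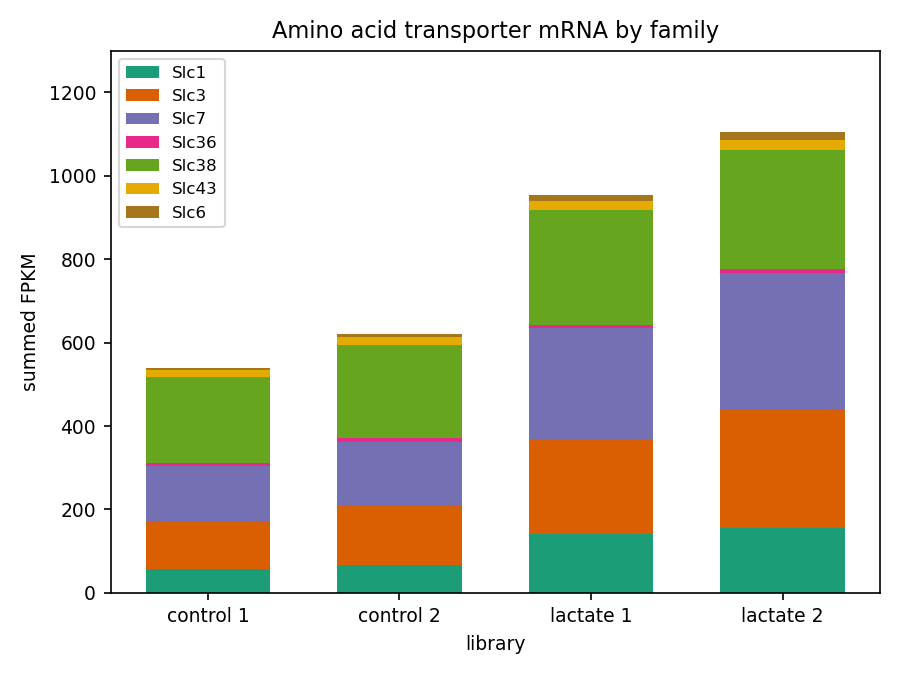
Summed FPKM (y axis) of the 48 transporter genes in each of the 4 libraries (x axis), stacked by family. The bars reach 540.3 and 620.4 FPKM in control and 955 and 1106 FPKM in lactate libraries, and the Slc36 band, 7.75 to 9.50 FPKM, is about as thin in every bar.

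The heavy chain Slc3a2 was the most abundant transporter mRNA in these cells. It was at 115 and 143 FPKM in control and 225 and 281 FPKM in lactate libraries. Both lactate libraries were higher, with a log2 fold change of 0.86 (SE 0.18) and an edgeR adjusted p-value of 0.0688, so the gene was not called. DESeq2 gave an adjusted p-value of 0.00469 without a change beyond 2-fold. Slc3a1 (rBAT), the heavy chain of the kidney and intestine cystine carrier, was at 0.07 to 0.27 FPKM with overlapping groups.

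Slc7a5 (LAT1), the light chain that takes up leucine and other large neutral amino acids, ranked second by mean FPKM over all 4 libraries. In both control libraries it lay below Slc38a4, which was at 72.8 and 74.6 FPKM there. Slc7a5 was at 54.9 and 60.9 FPKM in control and 124 and 154 FPKM in lactate libraries. The groups did not overlap, and the log2 fold change was 1.16 (SE 0.15, edgeR adjusted p-value 0.0431). With RSEM expected counts it was 1.15 and the gene was not called (edgeR adjusted p-value 0.0525). Without control replicate 1 the edgeR adjusted p-value was 0.103, with a log2 fold change of 1.08.

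The light chains Slc7a6 and Slc7a7 exchange cationic for neutral amino acids. Slc7a7 (y+LAT1) was at 5.14 and 4.02 FPKM in control and 18.8 and 24.0 FPKM in lactate libraries. It rose by 1.95 on the log2 scale (SE 0.19, edgeR adjusted p-value 0.0320). Its paralog Slc7a6 (y+LAT2) was at 14.4 and 17.1 FPKM in control and 23.9 and 26.3 FPKM in lactate libraries. That difference, 0.52 on the log2 scale (SE 0.14), had an edgeR adjusted p-value of 0.105. Slc7a7 mRNA was thus 0.357 and 0.235 of the Slc7a6 level in control and 0.787 and 0.912 of it in lactate libraries, with no overlap between groups.

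Slc7a11 (xCT), the light chain that imports cystine in exchange for glutamate, had the largest edgeR log2 fold change of the tested members and one of the lowest levels. It had 11 and 11 reads in control and 95 and 121 reads in lactate libraries. The log2 fold change was 3.20 (SE 0.28, edgeR adjusted p-value 0.0312), and its level in lactate libraries was 0.56 and 0.95 FPKM. With limma on log2(FPKM + 1) and log2(FPKM + 0.1), the Slc7a11 value was 0.69 and 2.22, below Slc1a4 at 2.47 and 2.64. Slc7a9, the other cystine carrier, had overlapping groups, with a log2 fold change of 0.57 in the read counts and mean FPKM of 0.875 in control and 0.810 in lactate libraries.

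The 6 light chains known to pair with Slc3a2 in these tables (Slc7a5, Slc7a6, Slc7a7, Slc7a8, Slc7a10 and Slc7a11) summed to 75.3 and 82.8 FPKM in control and to 168 and 206 FPKM in lactate libraries. Slc3a2 stood at 1.53 and 1.72 times this sum in control and at 1.34 and 1.37 times in lactate libraries. The heavy chain therefore exceeded the light chains in mRNA in every library, by a smaller ratio in both lactate libraries. Slc7a5 made up 0.730 and 0.735 of the light chain sum in control and 0.737 and 0.746 in lactate libraries, nearly the same proportion.

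Arginine and lysine enter through the cationic amino acid transporters. Slc7a1 (CAT1) was at 21.0 and 24.2 FPKM in control and 58.4 and 61.5 FPKM in lactate libraries, and rose by 1.37 on the log2 scale (SE 0.13, edgeR adjusted p-value 0.0320). Without control replicate 1 its edgeR adjusted p-value was 0.0555, at a log2 fold change of 1.32. Slc7a3 (CAT3) was at 32.0 and 41.9 FPKM in control and 40.1 and 57.9 FPKM in lactate libraries. These groups overlapped, and the log2 fold change of 0.38 (SE 0.22) had an edgeR adjusted p-value of 0.342. With one library left out it ranged from 0.11 (without lactate replicate 2) to 0.59 (without lactate replicate 1). Slc7a1 mRNA was below Slc7a3 in both controls, at 0.655 and 0.576 of its level, and above it in both lactate libraries, at 1.46 and 1.06. Slc7a2 (CAT2) was far lower, at 0.55 and 0.68 FPKM in control and 1.07 and 1.63 FPKM in lactate libraries. The log2 fold change of 1.01 (SE 0.19) had adjusted p-values of 0.0581 (edgeR) and 0.0420 (DESeq2).

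**Figure D3:**
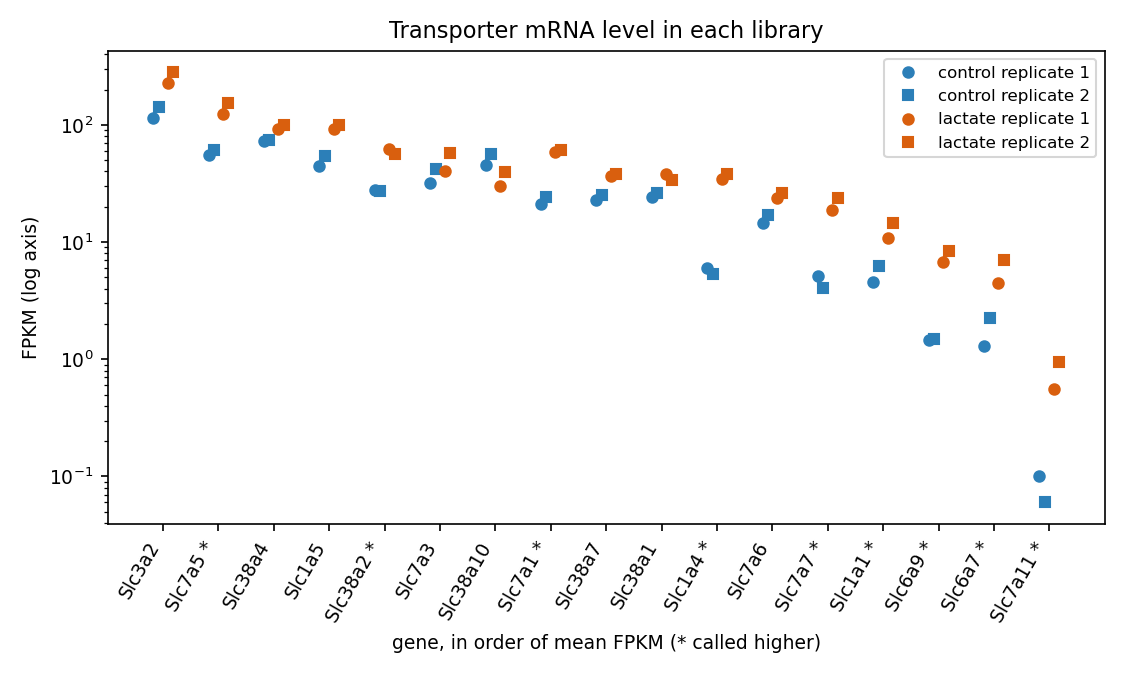
FPKM (y axis, log scale) in each of the 4 libraries of the 12 most abundant transporter genes and of the other called genes, in order of mean FPKM on the x axis, where circles are replicate 1, squares replicate 2 and a star marks a called gene. Both lactate points lie above both control points for 15 of the 17 genes, the exceptions being Slc7a3, where they overlap, and Slc38a10, where they lie below.

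In the Slc1 family, 1 neutral exchanger and 1 glutamate carrier were called higher. Slc1a4 (ASCT1), an exchanger of alanine, serine and cysteine, was at 6.06 and 5.36 FPKM in control and 34.2 and 38.3 FPKM in lactate libraries. It rose by 2.60 on the log2 scale (SE 0.15, edgeR adjusted p-value 0.0165), equal to the smallest that edgeR gave any gene. Slc1a5 (ASCT2), the glutamine exchanger, was at 44.8 and 54.2 FPKM in control and 92.8 and 101 FPKM in lactate libraries. The groups did not overlap, with a log2 fold change of 0.70 (SE 0.15), an edgeR adjusted p-value of 0.0688 and a DESeq2 adjusted p-value of 0.0234. Slc1a4 was 0.135 and 0.0989 of the Slc1a5 level in control and 0.368 and 0.380 of it in lactate libraries.

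Slc1a1 (EAAT3) takes up glutamate, aspartate and cysteine. It was at 4.54 and 6.28 FPKM in control and 10.9 and 14.5 FPKM in lactate libraries, and rose by 1.19 on the log2 scale (SE 0.17, edgeR adjusted p-value 0.0467). With RSEM expected counts the log2 fold change was 1.17 and the gene was not called (edgeR adjusted p-value 0.0624). Without control replicate 1 the edgeR adjusted p-value was 0.121, at a log2 fold change of 1.08. Of the exons annotated to Slc1a1, 31.9% of bases are also exons of 4430402I18Rik on the opposite strand, which had 90 and 122 reads in control and 196 and 273 reads in lactate libraries. Whether reads were counted by strand is not given in the sources used here, so the reads of such partners cannot be told apart. Slc1a3, a glial glutamate carrier, had a log2 fold change of 0.40 and was not called.

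The glycine carrier Slc6a9 (GlyT1) and the proline carrier Slc6a7 (PROT), both best known from neurons and glia, were low in control libraries and higher with lactate. Slc6a9 had 75 and 64 reads in control and 326 and 356 reads in lactate libraries, with a log2 fold change of 2.21 (SE 0.20, edgeR adjusted p-value 0.0313). It shares 27.8% of its exonic bases with Ccdc24 on the opposite strand, which had 23 and 26 reads in control and 91 and 97 reads in lactate libraries, a log2 fold change of 1.86 (edgeR adjusted p-value 0.0406). Slc6a7 had 181 and 261 reads in control and 587 and 881 reads in lactate libraries. Its log2 fold change was 1.65 (SE 0.24, edgeR adjusted p-value 0.0467), and without control replicate 1 it was 1.45 with an edgeR adjusted p-value of 0.0773. The RSEM expected counts of Slc6a7 came to 38.4% of its reads in the count table, where the median of the tested members was 80.4%, and no other gene shares its exons. In that second count it had 62 and 96 in control and 222 and 354 in lactate libraries, again without overlap, but the gene was not called there (log2 fold change 1.77, edgeR adjusted p-value 0.0648). The neutral carriers Slc6a15 and Slc6a17 had log2 fold changes of 0.18 and −0.14.

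The system A carriers of the Slc38 family take up glutamine, alanine and other small neutral amino acids with sodium. Slc38a2 (SNAT2), a carrier known for its induction by amino acid shortage and by hypertonic medium, was at 27.7 and 27.5 FPKM in control and 62.4 and 56.7 FPKM in lactate libraries. It rose by 1.07 on the log2 scale (SE 0.15, edgeR adjusted p-value 0.0467). With RSEM expected counts the log2 fold change was 1.03 and the gene was not called (edgeR adjusted p-value 0.0532). Without control replicate 1 the edgeR adjusted p-value was 0.0972, and without lactate replicate 1 the log2 fold change was 0.92, under the 2-fold limit. Slc38a1 (SNAT1) was at 24.1 and 26.0 FPKM in control and 38.3 and 34.1 FPKM in lactate libraries, a log2 fold change of 0.38 (SE 0.13) with an edgeR adjusted p-value of 0.163. Slc38a4 (SNAT4), imprinted in the mouse, was the third most abundant member, at 72.8 and 74.6 FPKM in control and 91.4 and 99.5 FPKM in lactate libraries. The log2 fold change of Slc38a4 was 0.32 (SE 0.13, edgeR adjusted p-value 0.210). Slc38a2 was at 1.15 and 1.06 times the Slc38a1 level in control and at 1.63 and 1.66 times in lactate libraries.

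These 3 genes lie side by side on chromosome 15 within chr15:96571418-97055956 (GRCm38), all on the minus strand, with gaps of 44479 and 295090 bases. Of the 3, only Slc38a2 was called, and the difference between the genes was not tested. In no other row of neighbouring members was more than 1 gene called. Slc36a3, Slc36a2 and Slc36a1 stand in a row on chromosome 11, Slc43a1 and Slc43a3 on chromosome 2, and Slc7a7 and Slc7a8 on chromosome 14, where Slc7a7 was called and Slc7a8 had a log2 fold change of 0.47.

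Among the system N and remaining Slc38 genes, values lay on both sides of 0 and none was called. Slc38a7 (SNAT7), a lysosomal glutamine carrier, was at 22.8 and 25.1 FPKM in control and 36.5 and 38.2 FPKM in lactate libraries, with a log2 fold change of 0.58 (SE 0.12, edgeR adjusted p-value 0.0694). Slc38a9, the lysosomal arginine sensor that acts on mTORC1, was at 3.83 and 3.78 FPKM in control and 5.32 and 6.22 FPKM in lactate libraries. The difference was 0.79 on the log2 scale (SE 0.15), with adjusted p-values of 0.0587 (edgeR) and 0.0262 (DESeq2). Slc38a8 had 14 and 23 reads in control and 51 and 44 in lactate libraries, a log2 fold change of 1.28 (SE 0.31) with an edgeR adjusted p-value of 0.0903. Slc38a6 was at 6.03 and 6.15 FPKM in control and 7.30 and 7.13 FPKM in lactate libraries, a log2 fold change of 0.46 (SE 0.16, edgeR adjusted p-value 0.174).

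Slc38a10 and Slc38a3 had the most negative values. Slc38a10, a carrier of unsettled physiological role, was the one with lower values among the 12 members with the highest mean FPKM, at 45.6 and 56.0 FPKM in control and 29.9 and 39.7 FPKM in lactate libraries. The log2 fold change was −0.63 (SE 0.14), with adjusted p-values of 0.0706 (edgeR) and 0.0268 (DESeq2). Slc38a3 (SNAT3), the glutamine carrier of liver and kidney, had 43 and 62 reads in control and 31 and 22 reads in lactate libraries. The groups did not overlap, and the log2 fold change was −1.05 (SE 0.31, edgeR adjusted p-value 0.125). Without lactate replicate 1 it was −1.39, with an edgeR adjusted p-value of 0.0387.

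The proton-coupled Slc36 and the facilitative Slc43 genes were near their control levels or not called. Slc36a1 (PAT1), the most abundant Slc36 gene, had a log2 fold change of −0.23 and a mean of 7.33 FPKM over the 4 libraries. Slc36a4 was at 0.50 and 0.48 FPKM in control and 1.04 and 1.45 FPKM in lactate libraries, a log2 fold change of 0.69 (SE 0.23, edgeR adjusted p-value 0.146). Slc36a3 was at 0.26 and 0.33 FPKM in control and 0.17 and 0.17 FPKM in lactate libraries, a log2 fold change of −0.48 (SE 0.38, edgeR adjusted p-value 0.504). Slc43a3, which carries purine nucleobases and not amino acids, was at 5.98 and 6.90 FPKM in control and 9.32 and 8.89 FPKM in lactate libraries. Its log2 fold change was 0.42 (SE 0.16, edgeR adjusted p-value 0.194). The large neutral amino acid carriers Slc43a1 and Slc43a2 had log2 fold changes of −0.12 and 0.47.

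Relative change and change in amount ranked the genes differently. The mean FPKM was higher in lactate libraries for 35 of the 48 genes, by 468.2 FPKM in all. For 11 genes it was lower, with a summed difference of −17.98 FPKM. Slc3a2 alone gave 26.5% of the summed gain, Slc7a5 17.2%, Slc1a5 10.1%, Slc7a1 7.99% and Slc38a2 6.82%. These 5 genes made up 68.7% of the gain, while the 9 called genes made up 46.0%. Slc7a11, with the largest edgeR log2 fold change, gave 0.144%. By control mean, the called genes ranged from 0.08 FPKM (Slc7a11) to 57.9 FPKM (Slc7a5). By the mean over all 4 libraries, 6 stood among 19 members above 5 FPKM and 3 among 17 tested members below it. That mean includes the change itself, and Slc7a7 (control mean 4.58 FPKM) passed 5 FPKM only through the lactate libraries.

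**Figure D4:**
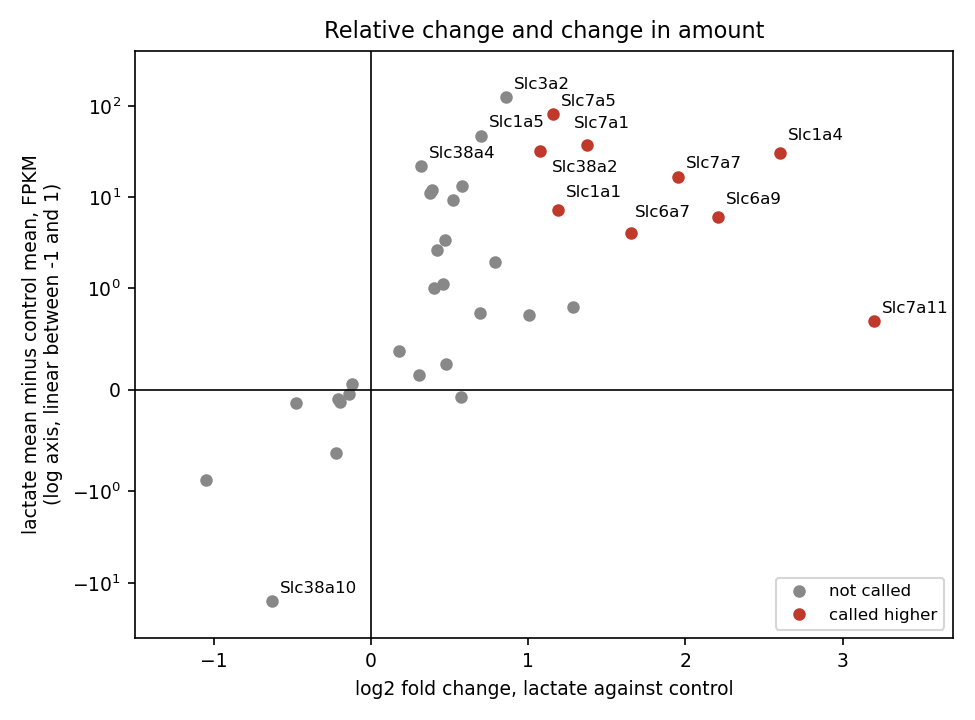
Difference of the mean FPKM (y axis, log scale with a linear stretch from −1 to 1) against the log2 fold change (x axis) of the 36 tested transporter genes, lactate against control, with the called genes in red. Slc3a2 sits highest at 124 FPKM with a log2 fold change of 0.86, Slc7a11 farthest right at 3.20 with 0.675 FPKM, and Slc38a10 lowest.

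Promoter sequences were matched by symbol for 34 of the 48 genes, 7 of them called. They were taken from RefSeq (GRCm38.p6) as the 250 bases before and 50 bases after a transcription start. The C/EBP-ATF response element core, TGATGNAA on either strand, is the motif that ATF4 binds together with C/EBP proteins. It occurred in the promoters of 3 members, Slc7a11, Slc1a4 and Slc7a7, all of them called, in 0 of the other 4 called members with a promoter and in 0 of the 19 tested members that were not called. Of all 32851 promoters of the same length, 3.97% hold it, and of the 27025 genes with a promoter 4.51% do. A match of 8 letters is a description and not a bound site, and a promoter without one may use another start or another element. The 3 promoters are shown because they carry the motif, in lower case from 5′ to 3′ on the gene's strand with each match in capitals. They lie at chr3:50443564-50443863 (Slc7a11), chr11:20332664-20332963 (Slc1a4) and chr14:54417895-54418194 (Slc7a7), all on the minus strand.
Slc7a11: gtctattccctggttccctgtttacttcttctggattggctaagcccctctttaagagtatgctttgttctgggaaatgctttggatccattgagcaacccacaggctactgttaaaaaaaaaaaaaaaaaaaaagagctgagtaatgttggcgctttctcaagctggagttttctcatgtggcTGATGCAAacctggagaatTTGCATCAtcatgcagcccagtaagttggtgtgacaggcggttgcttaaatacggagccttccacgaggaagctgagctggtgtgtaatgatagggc
Slc1a4: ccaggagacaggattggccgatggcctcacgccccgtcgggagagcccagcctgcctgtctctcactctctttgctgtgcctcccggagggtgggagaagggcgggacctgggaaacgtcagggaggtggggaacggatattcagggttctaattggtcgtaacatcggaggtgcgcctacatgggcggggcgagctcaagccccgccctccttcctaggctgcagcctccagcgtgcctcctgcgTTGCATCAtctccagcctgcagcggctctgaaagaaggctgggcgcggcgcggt
Slc7a7: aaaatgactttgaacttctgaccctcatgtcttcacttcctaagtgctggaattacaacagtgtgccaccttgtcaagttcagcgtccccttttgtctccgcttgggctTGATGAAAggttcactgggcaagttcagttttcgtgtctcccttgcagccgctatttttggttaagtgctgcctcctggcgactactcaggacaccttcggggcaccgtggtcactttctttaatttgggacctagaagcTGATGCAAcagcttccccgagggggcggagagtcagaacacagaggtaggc

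The start base is counted as 1 and the base before it as −1. The Slc7a11 promoter held a pair of matches facing each other, at −66 to −59 on the gene's strand and at −47 to −40 on the other strand. The Slc1a4 match spanned the start, from −4 to 4 on the other strand. Slc7a7 had a match at −141 to −134 and another at −1 to 7. A second annotated Slc7a7 start further downstream has the same element at −243 to −236. The full form TGATGCAA, looked at after these matches were seen, was present in all 3 promoters and in 0.895% of all promoters.

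**Figure D5:**
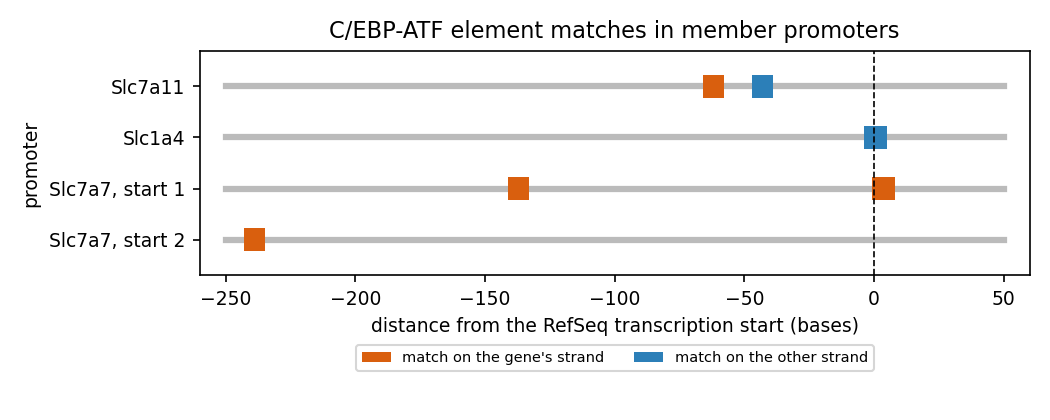
Matches to the C/EBP-ATF element core (boxes, coloured by strand) along the 300 bases of each member promoter that holds one, with the distance from the RefSeq transcription start in bases on the x axis and the promoters on the y axis. Slc7a11 has a facing pair upstream, Slc1a4 has a match across the start, and Slc7a7 start 2 shows the match of start 1 again in an overlapping window.

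The mean transcript length that RSEM assigned to a gene, weighted by the abundance of its annotated transcripts, was not used to choose the 48 genes. FPKM is per transcript length, so the cut at 5 FPKM used here is not independent of it. Among the 19 members above 5 FPKM this length was shorter in both lactate libraries than in both controls for 5 genes and longer for 2. Of 9817 genes at this level, 12.5% were shorter and 16.1% longer. Slc7a7 was at 1841 and 1926 bases in control and 1611 and 1605 bases in lactate libraries. With a control mean of 4.58 FPKM, it passed the cut only through the lactate libraries. Slc1a5 was at 1918 and 1873 bases in control and 1639 and 1779 bases in lactate libraries. The most abundant light chain differed little, with Slc7a5 at 3498 and 3500 bases in control and 3474 and 3451 bases in lactate libraries. Slc38a6 went the other way, at 1675 and 2059 bases in control and 2198 and 2467 bases in lactate libraries. Below 5 FPKM, Slc38a9 was at 3888 and 4003 bases in control and 5189 and 4973 bases in lactate libraries. For the same reads, a shorter length gives a higher FPKM and a longer length a lower one. FPKM sums, gains and ratios therefore include these shifts. The log2 fold change of Slc1a5 was 0.70 in the read counts and 0.96 with limma on log2(FPKM + 1). For Slc38a6 the 2 values were 0.46 and 0.21. These lengths come from short reads shared between annotated transcripts and were not tested.

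The called genes lie on 9 chromosomes. In GRCm38 with GENCODE annotation, Slc7a11 is at chr3:49892526-50443614, Slc1a4 at chr11:20302180-20332713, Slc7a7 at chr14:54369442-54417780, Slc7a1 at chr5:148327410-148399904, Slc7a5 at chr8:121881150-121907694 and Slc38a2 at chr15:96687392-96699730, all on the minus strand. Slc6a9 is at chr4:117834506-117875198 and Slc1a1 at chr19:28835049-28913960 on the plus strand. All 48 genes are annotated as protein coding. Exons of 11 members overlap exons of a gene on the opposite strand, and 3 of the 11 were called. Besides Slc1a1 and Slc6a9, Slc7a7 shares 7.0% of its exonic bases with Oxa1l, which had a log2 fold change of −0.06. Slc3a1 shares 26.5% of its exonic bases with Prepl, and its RSEM expected counts came to 8.85% of its reads in the count table.

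Genes of related function outside these families were read from the same fit. Of 11 mitochondrial amino acid carriers edgeR and DESeq2 called 0, with 0 higher and 1 lower at an unadjusted p under 0.05 in edgeR and a median of −0.04. Of 13 partner and trafficking genes, edgeR and DESeq2 called 0. At an unadjusted p under 0.05 in edgeR, where 11.7% of all genes were higher and 11.4% lower, 0 of the 13 were lower and 2 were higher, near the share of all genes. These 2 were Sgk1, a kinase that raises carrier abundance at the membrane, and Laptm4b, which brings LAT1 to lysosomes, with log2 fold changes of 0.84 and 0.76, edgeR adjusted p-values of 0.0520 for each and DESeq2 adjusted p-values of 0.00138 and 0.00737. With no limit on the fold, 2 of the 13 were thus higher and 0 lower at a DESeq2 adjusted p under 0.05. Of all genes, 1.86% were higher and 3.14% lower at that threshold.

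Lactate also raised genes of the ATF4 axis. Of 31 tested, 11 were called higher and 0 lower by edgeR, with a median log2 fold change of 0.74, and DESeq2 called 10 higher and 0 lower. Among all genes tested, edgeR called 0.552% higher and 0.348% lower, and DESeq2 called 1.12% higher and 0.993% lower. At an unadjusted p under 0.05 in edgeR 26 of the 31 were higher and 0 lower, beside 11.7% and 11.4% of all genes. Chac1, which degrades glutathione, had 55 and 73 reads in control and 936 and 1388 reads in lactate libraries. Ddit3 (CHOP) had 207 and 235 reads in control and 546 and 633 reads in lactate libraries, a log2 fold change of 1.33 (edgeR adjusted p-value 0.0396). Atf4 mRNA itself had 1677 and 2288 reads in control and 3347 and 5041 reads in lactate libraries, a log2 fold change of 1.00 with adjusted p-values of 0.0688 (edgeR) and 0.00168 (DESeq2). Asns, the asparagine synthetase, had a log2 fold change of 0.54 (edgeR adjusted p-value 0.110). The motif TGATGNAA was present in 35.7% of the 28 ATF4 axis genes with a promoter, beside 4.51% of all genes with a promoter. The genes were listed for their tie to ATF4, which binds this motif, so this share describes the list and not an effect of lactate. The list was compiled with results of these data known, and no test of the list was made.

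A list of 16 genes of cystine and glutathione use, the pathway that Slc7a11 feeds, which also holds redox genes of the NRF2 system (Nfe2l2, Keap1, Hmox1, Nqo1 and Txnrd1), gave 0 calls in edgeR and in DESeq2 beyond 2-fold. With no limit on the fold, 0 were higher and 3 lower (Gsr, Keap1 and Nqo1) at a DESeq2 adjusted p under 0.05, beside 1.86% and 3.14% of all genes. Chac1, called higher, stands in the ATF4 axis list and not in this one. At an unadjusted p under 0.05 in edgeR 3 of the 16 were higher and 5 lower, beside 11.7% and 11.4% of all genes, and the median log2 fold change was −0.28. Summed markers of 2 other cell states were higher in both lactate libraries. The 6 genes of 2-cell-like cells, the rare ESCs that resemble cleavage embryos, summed to 12.03 and 9.12 CPM in control and to 31.1 and 23.8 CPM in lactate libraries, with Zscan4c the most abundant and none at 0 in all libraries. Of the 4 tested, edgeR called 0 with all 4 higher at an unadjusted p under 0.05. DESeq2 called 3 higher beyond 2-fold, where it called 1.12% of all genes higher. The 6 primitive endoderm markers summed to 15.8 and 14.1 CPM in control and 26.7 and 19.4 CPM in lactate libraries, with Dab2 the most abundant, none at 0 in all libraries, and 0 of 4 tested called by edgeR or DESeq2, 2 of them higher at an unadjusted p under 0.05 in edgeR. The part of either in the transporter results was not tested.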

How the data were processed

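RNA-seq of AB2.2 ESCs was analysed in 2 control and 2 lactate libraries. The authors trimmed reads with cutadapt 1.16, aligned them with STAR to the mouse genome (mm10) and deposited a matrix of raw counts per gene, and for each library the authors ran RSEM and deposited expected counts, TPM and FPKM per gene. Rows of repeat families, 7.36% to 9.41% of all reads in the matrix, were left out. The number of other per-sample columns left unused was 0.

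Counts were tested with edgeR 4.0.16 (TMM factors of 0.9585 to 1.043, default filter on low counts, quasi-likelihood test in its legacy form, R 4.3.3) over 18661 genes, with Benjamini-Hochberg adjusted p-values. Calls required a change over 2-fold and an adjusted p under 0.05. CPM values use the TMM-scaled library sizes. Alternatives were DESeq2 1.42.0, other scaling and filters, a replicate block, rounded RSEM expected counts, limma 3.58.1 on log2(FPKM + 1) and log2(FPKM + 0.1), TPM sums, and each library left out. The 2 libraries of a group differed beyond counting noise (chi-square per degree of freedom 22.3 in control and 21.6 in lactate). The script was tested on simulated data.

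The member genes and the other lists were chosen with earlier results of these data known, and no set test was run. Values in every library are given for members called by edgeR or DESeq2, members with an unadjusted p under 0.05, the 12 with the highest mean FPKM, and the 3 highest and 3 lowest log2 fold changes. Sgk1 and Laptm4b were named after their values were seen. Gene positions and exon overlaps come from GENCODE annotation of GRCm38, in which all 48 members had the same versioned ID. Slc6a7 coordinates are not printed. Protein sequences were not used here. A list of other plasma membrane and lysosomal carriers is not reported here.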

Additional observations from a re-analysis of the deposited data

How the results depend on the processing

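Across 18 alternatives (16 for Slc36a3, which was not tested in the others) none of the 25 genes chosen for values in every library changed direction, and all 9 called members were called again in 12. Members called higher numbered 5 with RSEM expected counts (Slc1a1, Slc38a2, Slc6a7 and Slc7a5 lost, at edgeR adjusted p-values of 0.0624, 0.0532, 0.0648 and 0.0525), and 4 to 11 when one library was left out. Limma called 0 members and 0 genes in either direction in each of its 3 forms, although 20, 21 and 20 members were higher at an unadjusted p under 0.05, and 2914, 2954 and 3419 genes in all were past it. Members called lower numbered 1, always Slc38a3, with no filter on low counts, with the replicate block and when one library was left out (0 to 1). The members' median log2 fold change was 0.59 with limma on log2(FPKM + 0.1), 0.29 with limma without a filter, and 0.50 to 0.61 when one library was left out. Over all genes, calls higher numbered 190 with DESeq2, 482 without a filter, 27 with RSEM expected counts and 45 to 502 when one library was left out. Calls lower numbered 168, 325, 17 and 39 to 367 under the same settings, and 40 with library totals alone. Leaving out a library leaves 1 in its group, which is then assumed to vary like the other group. The cause of these shifts was not tested.

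Libraries with the same replicate number deviated together from their group means (correlation 0.561 across genes), and mitochondrial transcripts took 5.48% and 5.72% of reads in both replicates numbered 1 and 2.43% and 2.82% in both numbered 2. With 2 pairs this is a hint and the samples share only a number. With the replicate block, edgeR called 761 genes higher and 395 lower, among them 11 members higher (with Slc38a8 and Slc7a2 added) and Slc38a3 lower, and DESeq2 called 236 and 201, among them the same 9 members. Leaving mitochondrial genes out, an alternative chosen after seeing the data, called the same 9 members. The share of calls that were higher was 61.3% in edgeR and 53.1% in DESeq2, 73.0% with library totals alone and 53.0% without control replicate 2. At this depth 12 members, with 15 reads or fewer in every library, were left untested by the filter on low counts.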
